A study of Saccharomyces cerevisiae with 8 samples.

Results

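The genes described here are the 33 that make, store, import and regulate ergosterol, the main sterol of yeast membranes. They were listed by name and role, and each was read from its brightest probe set that the array annotation assigns to that gene alone. All 33 had such a probe set, out of 5656 genes named in this way, and all 33 were among the 5188 genes that passed a filter on dim signal. Commercial baker's yeast (Saccharomyces cerevisiae, strain not given in the labels) was kept as a dense cell suspension at -20 °C for 0, 3, 7 or 14 days and thawed for 10 min at 30 °C. Per the labels' protocols, cells were suspended to OD600 30 in liquid fermentation medium that lacked sucrose and maltose, and poly(A) RNA was purified after the thaw. Each time had 2 samples that the submitters call independent, each read on 1 Affymetrix array, so 8 arrays were compared. The labels describe the 0 day samples in the same words as the frozen ones, and do not say whether they were frozen at all. Fewer intact cells and less messenger RNA per cell cannot be told apart in such bulk samples.

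Ergosterol is built from acetyl-CoA in a long chain of reactions. The mevalonate stage ends in farnesyl diphosphate, which also feeds dolichol, ubiquinone and protein prenylation; squalene synthase commits it to sterols, and squalene is then epoxidised, cyclised to lanosterol and trimmed to ergosterol. Several of these steps use molecular oxygen, and some need heme, so the pathway is known for its dependence on oxygen. Upc2 and Ecm22 are the transcription factors that raise the genes of the pathway when sterols run low, Are1 and Are2 store surplus sterol as esters, and Aus1 and Pdr11 import sterol when cells cannot make it. Membrane sterols are also known to affect how yeast withstands freezing and thawing.

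Median deposited signals of the arrays ran from 51.6 to 109.7, and values below are quantile normalised signals, on a linear scale unless a log2 value is named. The number of arrays limits the precision, and signals are compared between arrays for the same gene, never between genes. Ribosomal RNA probe sets stood at 15.7 to 22.7 times the array median on the 7 and 14 day arrays, against 6.76 to 11.3 times on the 0 and 3 day arrays, and their part in the results below was not tested. The ratio of 3' to 5' signal ran from 1.41 to 2.86 for ACT1 and from 2.07 to 4.32 for SPT15, in both cases with 0 day replicate 2 and 3 day replicate 1 highest. Over all genes, replicate arrays correlated at r = 0.877 at 0 days and between 0.912 and 0.938 at the other times.

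None of the 33 ergosterol genes passed the test at any freezing time, and the estimates of most lay within 2-fold of their level at 0 days. In limma, 0 of the 33 genes passed a Benjamini-Hochberg adjusted p of 0.05 after 14 days against 0 days, where 1.73% of all genes tested did. The sterol importer AUS1 came closest, at a log2 difference of -1.50 with an SE of 0.37 (limma, adjusted p = 0.0649). At an unadjusted p under 0.05, 3 of the 33 genes were reached (AUS1, ERG1 and ERG7, all below their 0 day signal), against 22.2% of all genes. After 7 days 0 of the 33 were called, against 0.212% of all genes, and AUS1 was the only gene of the 33 with an unadjusted p under 0.05, a mark that 19.0% of all genes reached. After 3 days limma called 0 of the 33 and 0% of all genes, and 0 of the 33 had an unadjusted p under 0.05, against 7.02% of all genes. The moderated F test of any difference among the 4 times called 0 of the 33 genes, where it called 2.58% of all genes. Its smallest adjusted p was that of AUS1 (limma adjusted p = 0.0975), and 2 of the 33 genes (AUS1 and ERG1) had an unadjusted p under 0.05, against 21.4% of all genes.

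**Figure D1:**
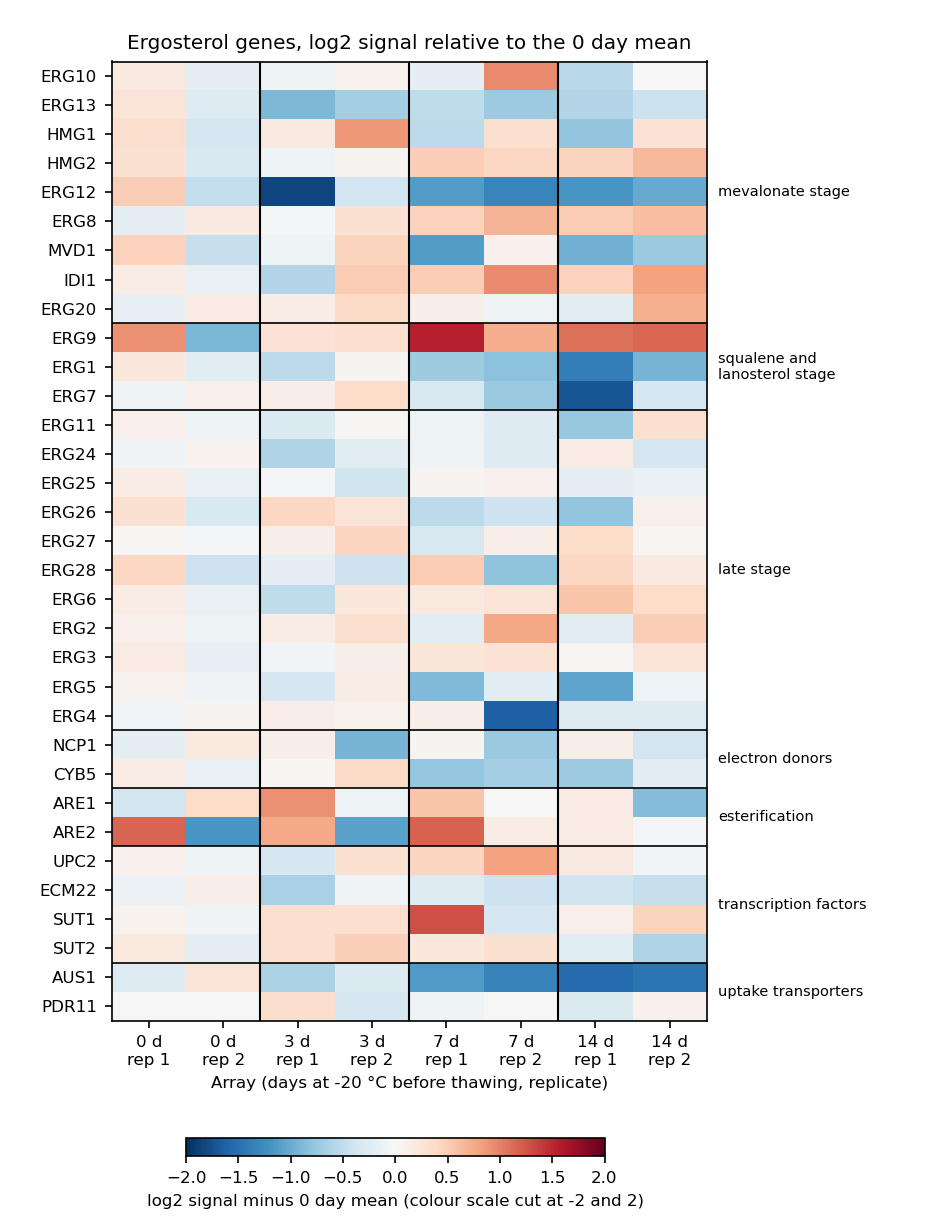
Log2 signal of each of the 33 ergosterol genes (rows, by role) on each of the 8 arrays (columns, by days at -20 °C and replicate), minus the gene's mean at 0 days. AUS1, ERG1, ERG12 and ERG13, among others, are blue on all 4 arrays of 7 and 14 days. Most of the late stage stays pale, apart from single arrays such as ERG4 on 7 day replicate 2.

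The sizes of the differences were small beside those of all genes tested. The median absolute log2 fold change of the 33 genes was 0.24 after 3 days, 0.45 after 7 days and 0.34 after 14 days. Over all genes tested it was 0.38, 0.53 and 0.57 at the same times. The median standard error of the 33 was 0.41, against 0.45 for all genes, so their smaller differences came with a slightly smaller error. More than a 2-fold difference from 0 days was seen for 5 of the 33 genes after 14 days (AUS1, ERG1, ERG12, ERG9 and ERG7), which is 15.2% of them, against 25.1% of all genes. A 95% confidence interval that lay wholly within 2-fold in both directions was reached by 6 of the 33 after 14 days (ERG2, ERG3, ERG11, ERG24, ERG25 and PDR11). That is 18.2% of the genes described, against 8.87% of all genes, and for the others a 2-fold difference in at least 1 direction lay within the interval.

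**Figure D2:**
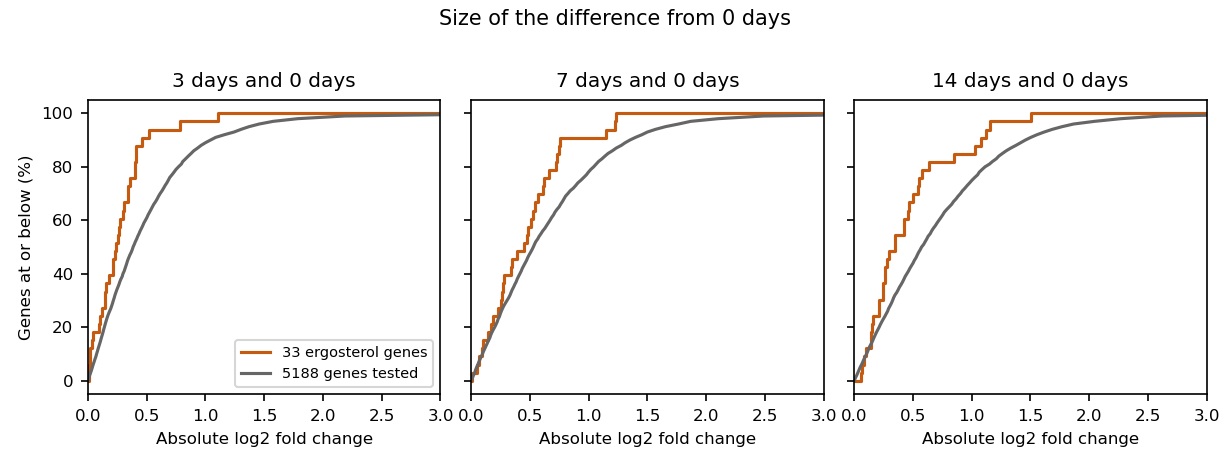
Share of genes (vertical axis, %) whose absolute log2 fold change from 0 days lies at or below the value on the horizontal axis, for 3, 7 and 14 days. The line of the 33 ergosterol genes lies above that of the 5188 genes tested over most of its range, with medians of 0.24 and 0.38 at 3 days and 0.34 and 0.57 at 14 days.

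The direction of the 33 genes was mixed. After 14 days 13 lay above and 20 below their 0 day mean, with a median log2 fold change of -0.16, against 0.11 for all genes. After 7 days 15 lay above and 18 below (median -0.096, against 0.17 for all genes), and after 3 days 16 and 17 (median -0.012, against 0.076). Signals of the 14 day arrays lay wholly below those of the 0 day arrays for 11 of the 33 genes and wholly above for 7. Among all genes this held for 22.9% below and 28.0% above. At 7 days the counts were again 11 below and 7 above, against 20.5% and 29.8% of all genes, and both comparisons share the 0 day arrays. At 3 days they were 3 below and 6 above, against 14.2% and 20.9%. Signs depend on the scaling, since without normalization 27 of the 33 lay above 0 after 14 days, where the median of all genes was 0.59. Relative to the median of all genes, 24 of the 33 lay below it on that scale and 22 after quantile normalization.

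**Figure D3:**
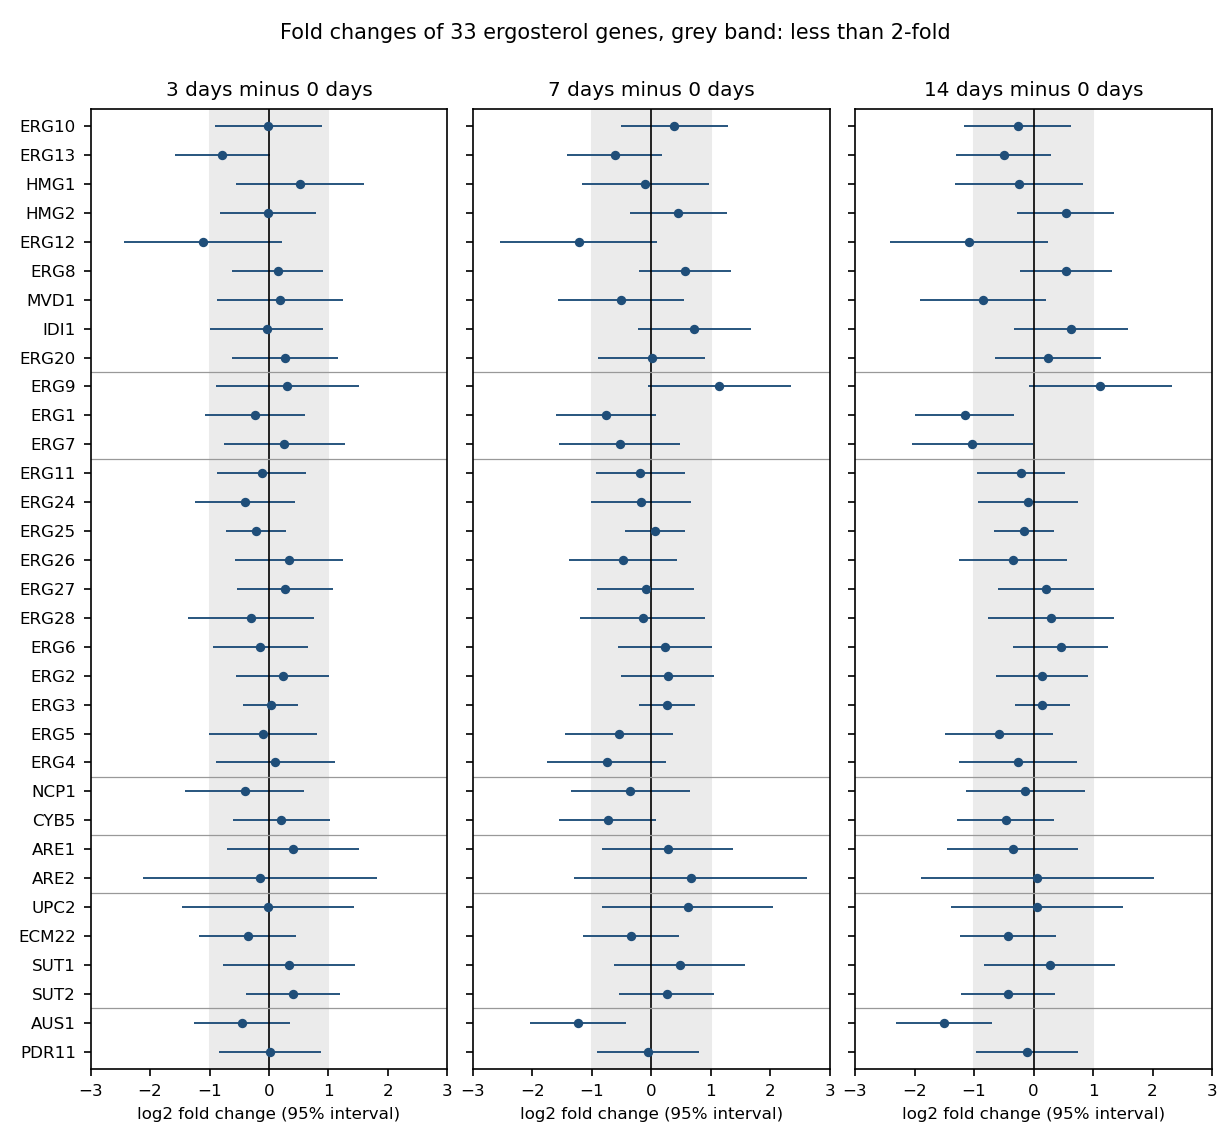
Log2 fold change against 0 days (points) with its 95% confidence interval (lines) from the limma fit, for each of the 33 ergosterol genes at 3, 7 and 14 days. The grey band marks less than 2-fold, and the interval of AUS1 at 14 days runs from -2.31 to -0.70, while that of ERG3 runs from -0.31 to 0.61.

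In the mevalonate stage, which makes the isoprenoid units of sterols, 0 of 9 genes were called at any time, against at most 4.59% of all genes. Genes of neighbouring steps lay on different sides of their 0 day level. The median log2 fold change of the stage was -0.25 after 14 days, and the values ran from -1.08 to 0.63. HMG1 and HMG2 encode the isozymes of HMG-CoA reductase, the main control point of the pathway. HMG1 had signals of 635 and 403 at 0 days, 574 and 921 at 3 days, 351 and 633 at 7 days and 294 and 619 at 14 days, so that the arrays of each frozen time overlapped with those of 0 days. Signals of HMG2 were 286 and 187 at 0 days, 218 and 239 at 3 days, 325 and 308 at 7 days and 314 and 361 at 14 days, and all 4 arrays of 7 and 14 days lay above all 4 of 0 and 3 days. Its log2 fold change at 14 days was 0.54 with an SE of 0.37 (limma, adjusted p = 0.409). The log2 ratio of HMG2 to HMG1, set to 0 at its 0 day mean, was -0.27 and -0.81 at 3 days, 1.02 and 0.092 at 7 days and 1.22 and 0.35 at 14 days. Replicate 1 gave the higher ratio at each frozen time, and the size of the shift at 7 and 14 days differed widely between the replicates.

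IDI1, the isomerase that turns isopentenyl into dimethylallyl diphosphate, had 363 and 298 at 0 days, 219 and 467 at 3 days, 462 and 636 at 7 days and 452 and 575 at 14 days. The 0 day arrays and 3 day replicate 1 lay lowest, while 3 day replicate 2 stood with the later arrays, and the 14 day difference was 0.63 with an SE of 0.43 (limma, adjusted p = 0.411). ERG8, phosphomevalonate kinase, had signals of 371 and 475 at 0 days, 413 and 520.4 at 3 days, 579 and 671 at 7 days and 594 and 637 at 14 days, with all later arrays above all of 0 and 3 days (0.55 with an SE of 0.35, limma adjusted p = 0.379).

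ERG13, which makes HMG-CoA, read 345 and 239.5 at 0 days, 155 and 180.0 at 3 days, 201 and 175 at 7 days and 192 and 214 at 14 days. All 6 frozen arrays lay below both 0 day arrays, already at 3 days (log2 fold change -0.78 with an SE of 0.36, limma adjusted p = 0.699). ERG12, mevalonate kinase, gave 118 and 60.0 at 0 days, 23.5 and 64.8 at 3 days, 38.8 and 33.6 at 7 days and 37.6 and 42.1 at 14 days, and the 7 and 14 day arrays lay below both 0 day arrays. Its log2 fold change at 3 days was -1.11 with an SE of 0.60 (limma, adjusted p = 0.712), and it was -0.38 without 3 day replicate 1, -1.86 without 3 day replicate 2 and -0.63 without 0 day replicate 1. At 14 days it was -1.08 with an SE of 0.60 (limma, adjusted p = 0.319), against -0.61 without 0 day replicate 1 and -1.57 without 0 day replicate 2. The array holds 4 probe sets for ERG12, and all 4 read lower at 3 days than at 0 days, with log2 differences of -1.11 to -0.89. At 14 days the 3 dimmer ones gave -0.73 to -0.53. The separation of the 7 and 14 day arrays from 0 days was not shared by all 4. For a dimmer probe set 14 day replicate 1 read 53.3, against 48.8 and 49.1 at 0 days. For another, 7 day replicate 1 read 57.1, against 63.1 and 48.9 at 0 days. The last one separated as the brightest did. The thiolase ERG10, the decarboxylase MVD1 and the farnesyl diphosphate synthase ERG20 had log2 fold changes of -0.26, -0.85 and 0.25 at 14 days.

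The 3 genes that take farnesyl diphosphate to lanosterol each lay more than 2-fold from their 0 day level at 14 days. In that comparison 0 of the 3 were called, against 1.73% of all genes. ERG9, squalene synthase, draws farnesyl diphosphate into sterols, and its signals were 257 and 73.0 at 0 days, 168 and 171 at 3 days, 404 and 228 at 7 days and 294 and 303 at 14 days. The 0 day arrays differed 3.52-fold from each other, the 14 day arrays hardly at all, and both 14 day arrays lay above both 0 day arrays. Its log2 fold change at 14 days was 1.12 with an SE of 0.55 (limma, adjusted p = 0.252). That value was 0.21 without 0 day replicate 2, and 2.07 without 0 day replicate 1, where ERG9 passed the threshold (limma adjusted p = 0.0402). After 7 days it was 1.15, 0.24 without 0 day replicate 2 and 2.10 without 0 day replicate 1, where it also passed (limma adjusted p = 0.0495). The array that carries these calls, 0 day replicate 2, also had the highest 3' to 5' ratios, whose part in the result was not tested.

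ERG1 encodes squalene epoxidase, the step that first uses oxygen and the target of allylamine antifungals. It had signals of 820.4 and 615 at 0 days, 494 and 734 at 3 days, 436 and 403 at 7 days and 272 and 373 at 14 days. Arrays of 14 days lay lowest, those of 7 days next, and all 4 lay below every array of 0 and 3 days. The log2 fold change was -0.24 at 3 days, -0.76 at 7 days and -1.16 with an SE of 0.38 (limma, adjusted p = 0.118) at 14 days. On values without normalization the 14 day difference was -0.55 and that of 7 days was 0.31, where the medians of all genes were 0.59 and 0.98. ERG7, lanosterol synthase, was singled out after its values were seen, with 266 and 309 at 0 days, 315 and 371 at 3 days, 230.2 and 172 at 7 days and 87.4 and 225 at 14 days. Its arrays of 7 and 14 days again lay below all of 0 and 3 days, and 14 day replicate 1 was far below its partner. The 14 day log2 fold change was -1.03 with an SE of 0.46 (limma, adjusted p = 0.221), which was -0.35 without 14 day replicate 1 and -1.73 without 14 day replicate 2.

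**Figure D4:**
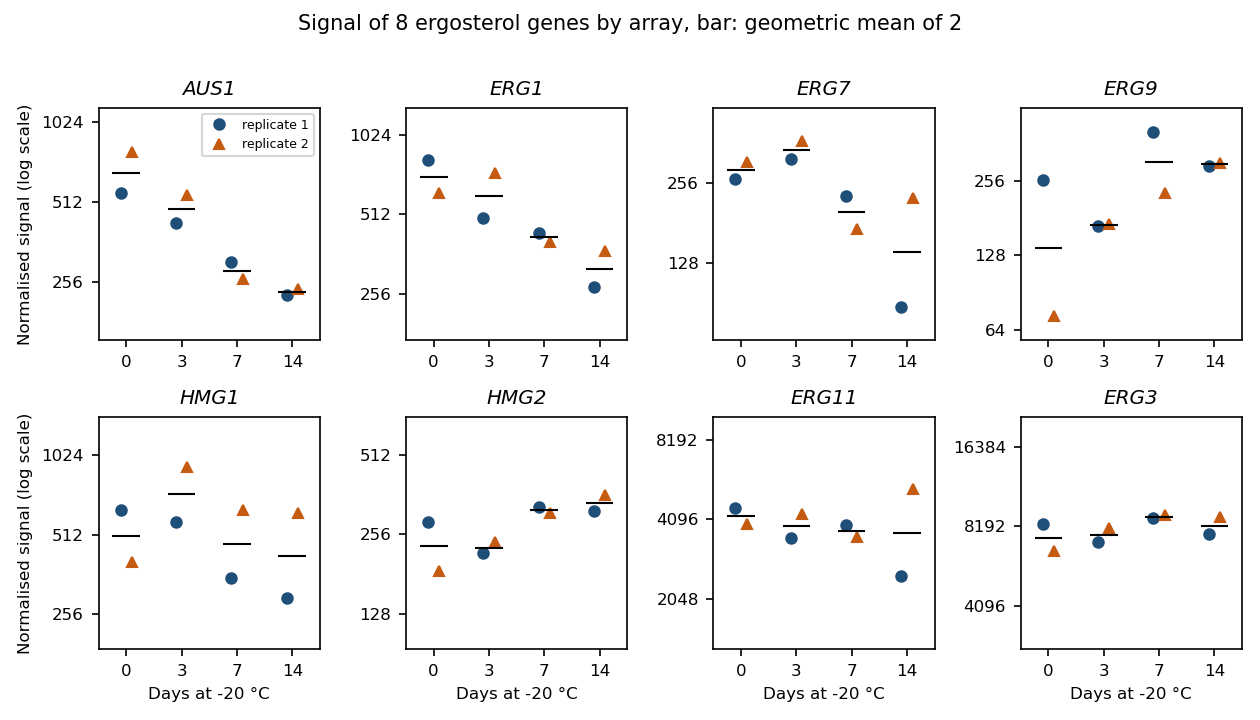
Normalised signal (log scale) of 8 ergosterol genes on each array against days at -20 °C, with replicate 1 as circles, replicate 2 as triangles and a bar at the geometric mean of the 2. AUS1, ERG1 and ERG7 lie lower on the 4 arrays of 7 and 14 days than on the 4 arrays of 0 and 3 days, and HMG2 lies higher. ERG9 has 0 day arrays that differ 3.52-fold, and ERG3 spans 1.37-fold over all 8 arrays.

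In the late stage, from lanosterol to ergosterol, the estimates at 14 days all lay within 2-fold of the 0 day levels. The 95% intervals lay wholly within 2-fold for 5 of the 11 genes of this stage, and for the others a 2-fold difference was not excluded. Of the 11 genes 0 were called at any time, against at most 4.59% of all genes. The log2 fold changes at 14 days ran from -0.58 to 0.46 with a median of -0.085. ERG11 encodes lanosterol 14-demethylase, the heme enzyme that azole antifungals inhibit. Its signals were 4515 and 3931 at 0 days, 3495 and 4295 at 3 days, 3915 and 3508 at 7 days and 2494 and 5327 at 14 days. Apart from the 14 day arrays, which lay at the bottom and the top of the range, they fell within a narrow band, and the 95% interval of the 14 day log2 fold change was -0.96 to 0.54. The C-4 methyl oxidase ERG25 gave 7046 and 5685 at 0 days, 6178 and 4819 at 3 days, 6549 and 6706 at 7 days and 5519 and 5793 at 14 days, with groups that overlapped and an interval of -0.67 to 0.34. For the C-5 desaturase ERG3 the signals were 8369 and 6612 at 0 days, 7125 and 8101 at 3 days, 8784 and 9078 at 7 days and 7679.9 and 8872 at 14 days, with both 7 day arrays above both 0 day arrays and a 14 day interval of -0.31 to 0.61. The highest of its 8 arrays exceeded the lowest by 1.37-fold, the smallest span of the 33 genes.

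ERG5, the C-22 desaturase and the other cytochrome P450 of the pathway, read 1079.7 and 981 at 0 days, 813 and 1138 at 3 days, 560.1 and 888 at 7 days and 498 and 955 at 14 days. The 7 and 14 day arrays lay below both 0 day arrays, replicate 1 further than replicate 2, and the 14 day log2 fold change was -0.58 with an SE of 0.41 (limma, adjusted p = 0.431). ERG4, the reductase that ends the pathway, had 3119.6 and 3359.5 at 0 days, 3557 and 3403 at 3 days, 3543 and 1046 at 7 days and 2708 and 2695 at 14 days, so its 7 day value of -0.75 came from replicate 2. Without that array it was 0.14. ERG26, the C-3 sterol dehydrogenase, gave 380.5 and 251 at 0 days, 412 and 370.0 at 3 days, 214 and 231 at 7 days and 178 and 333 at 14 days. Both of its 7 day arrays lay below all of 0 and 3 days (-0.81 against 3 days, limma adjusted p = 0.301). The remaining late genes ERG24, ERG27, ERG28, ERG6 and ERG2 lay at -0.085, 0.21, 0.30, 0.46 and 0.14 after 14 days. ERG28 is the scaffold that holds the C-4 demethylation enzymes together, and its 7 day arrays differed 2.47-fold.

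The 5 enzymes of the pathway that use molecular oxygen (ERG1, ERG11, ERG25, ERG3 and ERG5) held 0 called genes at any time, against at most 4.59% of all genes. Their median log2 fold change was -0.12 at 3 days, -0.18 at 7 days and -0.21 at 14 days, and at 14 days the values ran from -1.16 for ERG1 to 0.15 for ERG3. The 14 day intervals of 3 of the 5 (ERG3, ERG11 and ERG25) lay within 2-fold. Electrons for these steps come from NCP1, the P450 reductase, and from cytochrome b5, CYB5. CYB5 read 420.5 and 344 at 0 days, 390.4 and 495 at 3 days, 222 and 236 at 7 days and 229.6 and 328 at 14 days. Its 7 day arrays lay below all earlier ones, and it had the lowest value of the 33 genes at 7 days against 3 days (-0.94 with an SE of 0.37, limma adjusted p = 0.189). That was the only unadjusted p under 0.05 among the 33 in this comparison, against 20.4% of all genes. NCP1 lay at -0.14 after 14 days, with replicates that differed 2.08-fold at 3 days.

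The sterol ester synthases could not be judged well. ARE2, the main sterol acyltransferase of growing cells, was dim, with 66.2 and 13.0 at 0 days, 49.8 and 14.0 at 3 days, 66.6 and 32.6 at 7 days and 32.9 and 28.7 at 14 days. Replicate 2 of 0 and 3 days lay under the filter level of 17.9. Its replicates differed 5.07-fold at 0 days and 3.55-fold at 3 days. The 14 day log2 fold change was 0.063 with all arrays, 1.23 without 0 day replicate 1 and -1.11 without 0 day replicate 2, and its interval was -1.90 to 2.02. ARE1 gave 188 and 310.2 at 0 days, 455 and 225 at 3 days, 354 and 241 at 7 days and 272 and 132 at 14 days, with overlapping groups at every time and a 14 day value of -0.35 with an SE of 0.50 (limma, adjusted p = 0.725). Its interval was -1.45 to 0.76, so a 2-fold lower level lay within the intervals of both genes and a 2-fold higher one within that of ARE2.

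Of the transcription factors, 0 of 4 were called at any time, against at most 4.59% of all genes. UPC2, which binds ergosterol and turns on sterol synthesis and uptake when it is scarce, was dim, with 27.1 and 24.0 at 0 days, 20.2 and 31.6 at 3 days, 34.3 and 44.5 at 7 days and 28.9 and 24.5 at 14 days. Both 7 day arrays lay above both 0 day arrays, the 14 day arrays did not, and the log2 fold changes were -0.016, 0.61 and 0.059 at 3, 7 and 14 days. Its paralog ECM22 had signals of 264 and 313 at 0 days, 183 and 275 at 3 days, 239 and 215 at 7 days and 218 and 209 at 14 days, with the 7 and 14 day arrays below both 0 day arrays (-0.43 with an SE of 0.37, limma adjusted p = 0.518). SUT2, a factor related to the sterol uptake regulator SUT1, read 234 and 179.7 at 0 days, 256 and 287 at 3 days, 238 and 252 at 7 days and 174 and 134 at 14 days. Its 14 day arrays were the lowest of the 8, and against 3 days the value was -0.83 with an SE of 0.36 (limma, adjusted p = 0.187). SUT1 lay at 0.28 after 14 days, and its 7 day arrays differed 3.08-fold.

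AUS1 and PDR11 encode related ABC transporters that bring sterol into the cell, mainly when oxygen is lacking. AUS1 had signals of 556 and 789 at 0 days, 427 and 545 at 3 days, 303 and 263 at 7 days and 228 and 240.2 at 14 days. Each group lay wholly below the group before it, and replicates differed 1.05-fold at 14 days and 1.42-fold at 0 days. The log2 fold change was -0.46 at 3 days, -1.23 with an SE of 0.37 (limma, adjusted p = 0.134) at 7 days and -1.50 with an SE of 0.37 (limma, adjusted p = 0.0649) at 14 days, the last a 2.83-fold lower signal with a 95% interval of -2.31 to -0.70. The threshold was passed with the dim filter set at the median (limma adjusted p = 0.0476) and without 0 day replicate 1 (-1.76, limma adjusted p = 0.0450), and the adjusted p ran from 0.0450 to 0.305 over 18 alternatives.

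On the deposited scale AUS1 read 341 and 587 at 0 days, 347 and 484 at 3 days, 506 and 299 at 7 days and 207 and 279.6 at 14 days. There 7 day replicate 1, the array with the highest median signal, overlapped the earlier arrays. The log2 fold change on that scale was -0.20 at 7 days and -0.89 at 14 days, where the medians of all genes were 0.98 and 0.59. The annotation gives AUS1 5 further probe sets, all dimmer, whose 14 day differences ran from -1.68 to -0.25. In some of them the 14 day arrays lay between the 0 day arrays, such as 63.3 and 54.1 against 250 and 47.6, and in others they lay below both. The fall from each group to the next is that of the brightest probe set. PDR11 had 103 and 102 at 0 days, 131 and 81.3 at 3 days, 96.0 and 102 at 7 days and 83.7 and 108 at 14 days, with overlapping groups at every time and a 14 day interval of -0.96 to 0.75. The log2 ratio of AUS1 to PDR11, set to 0 at its 0 day mean, was -0.99 and 0.052 at 3 days, -1.04 and -1.33 at 7 days and -1.25 and -1.54 at 14 days, and the 4 arrays of 7 and 14 days lay below the other 4.

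Comparisons among the frozen times gave no call for the 33 genes either. Limma called 0 of them at 7 days against 3 days, where 1.20% of all genes were called, and 0 at 14 days against 3 days, against 4.59% of all genes. At 14 days against 3 days 4 of the 33 had an unadjusted p under 0.05 (ERG7, AUS1, ERG1 and SUT2), all with lower signal at 14 days, against 24.6% of all genes. Their log2 fold changes were -1.28, -1.04, -0.92 and -0.83. At 14 days against 7 days limma called 0 of the 33 and 0% of all genes, with 0 of the 33 at an unadjusted p under 0.05, against 0.925% of all genes, and values from -0.68 to 0.49. The 11 genes whose intervals lay within 2-fold in that comparison were ERG13, HMG2, ERG8, ERG11, ERG24, ERG25, ERG2, ERG3, ERG5, ECM22 and PDR11. Arrays did not overlap for 6 genes higher and 7 lower at 7 days against 3 days, where 30.3% and 24.8% of all genes did so. At 14 days against 3 days the counts were 6 higher and 8 lower, against 28.6% and 28.5% of all genes. At 14 days against 7 days they were 1 higher and 5 lower, against 10.2% and 16.1%.

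Among other genes of sterol biology, 2 regulators of the pathway rose. Of 6 genes that act on the pathway from outside it (MOT3, ROX1, HAP1, NSG1, NSG2 and DAP1), 2 rose and 0 fell after 14 days against 0 days, where 1.73% of all genes were called. At an unadjusted p under 0.05 there were 5 of the 6, against 22.2% of all genes. The 6 genes were listed with earlier results of these data known, so neither count is a test of the list. The uncalled HAP1, NSG1 and NSG2 lay at -0.88, -0.89 and 1.06, and no size is given for MOT3, whose 0 day signals were 4.02 and 43.1, replicate 1 lying under the filter level of 17.9. DAP1 encodes a heme-binding protein that sustains the activity of Erg11. It had signals of 271 and 109.6 at 0 days, 186 and 269 at 3 days, 748 and 1162 at 7 days and 889 and 1522 at 14 days. The 4 arrays of 7 and 14 days exceeded all 4 arrays of 0 and 3 days, and ERG11 itself lay at -0.21 after 14 days. DAP1 rose 6.74-fold after 14 days against 0 days (log2 fold change 2.75 with an SE of 0.50, limma adjusted p = 0.0287) and 5.21-fold after 14 days against 3 days (2.38 with an SE of 0.50, limma adjusted p = 0.0294). After 7 days its value against 0 days was 2.43 with an SE of 0.50 (limma, adjusted p = 0.0608).

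The call of DAP1 at 14 days against 0 days ended in 6 of 18 alternatives, among them leaving out 0 day replicate 2 (2.10, limma adjusted p = 0.0730), 14 day replicate 1 (3.15, limma adjusted p = 0.0872) or 14 day replicate 2 (2.38, limma adjusted p = 0.204). The log2 fold change stayed between 2.10 and 3.44 over all 18. Its call at 14 days against 3 days ended in 5 alternatives, of which 4 left out an array of 3 or 14 days (limma adjusted p = 0.0787 to 0.181). ROX1, the heme-induced repressor of hypoxic genes, read 173 and 80.5 at 0 days, 84.5 and 64.3 at 3 days, 803 and 546 at 7 days and 1397 and 1030.4 at 14 days. It rose 10.2-fold against 0 days at 14 days (log2 fold change 3.35 with an SE of 0.45, limma adjusted p = 0.0140), and against 3 days at 7 days (3.17 with an SE of 0.45, limma adjusted p = 0.0287) and 14 days (4.02 with an SE of 0.45, limma adjusted p = 0.00584), with all arrays of the later time above all of the earlier. Its log2 fold change against 0 days at 14 days was 2.79 without 0 day replicate 2 and 3.94 without 0 day replicate 1, and stayed called in both. The call against 0 days ended in 3 of 18 alternatives, among them leaving out 14 day replicate 1 (limma adjusted p = 0.0872) or replicate 2 (limma adjusted p = 0.0965). The call at 14 days against 3 days ended in 2, without 3 day replicate 2 (limma adjusted p = 0.0876) and without 14 day replicate 1 (limma adjusted p = 0.0523). At 7 days against 3 days it ended in 6, of which 5 left out 3 day replicate 2 or an array of 7 or 14 days (limma adjusted p = 0.0515 to 0.152). Ribosomal RNA signal was also higher on the 7 and 14 day arrays, as given above, and its part in these rises was not tested. For DAP1 and ROX1 the lower 0 day signal was that of replicate 2, the array with the highest 3' to 5' ratios. The part of those ratios was not tested either.

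**Figure D5:**
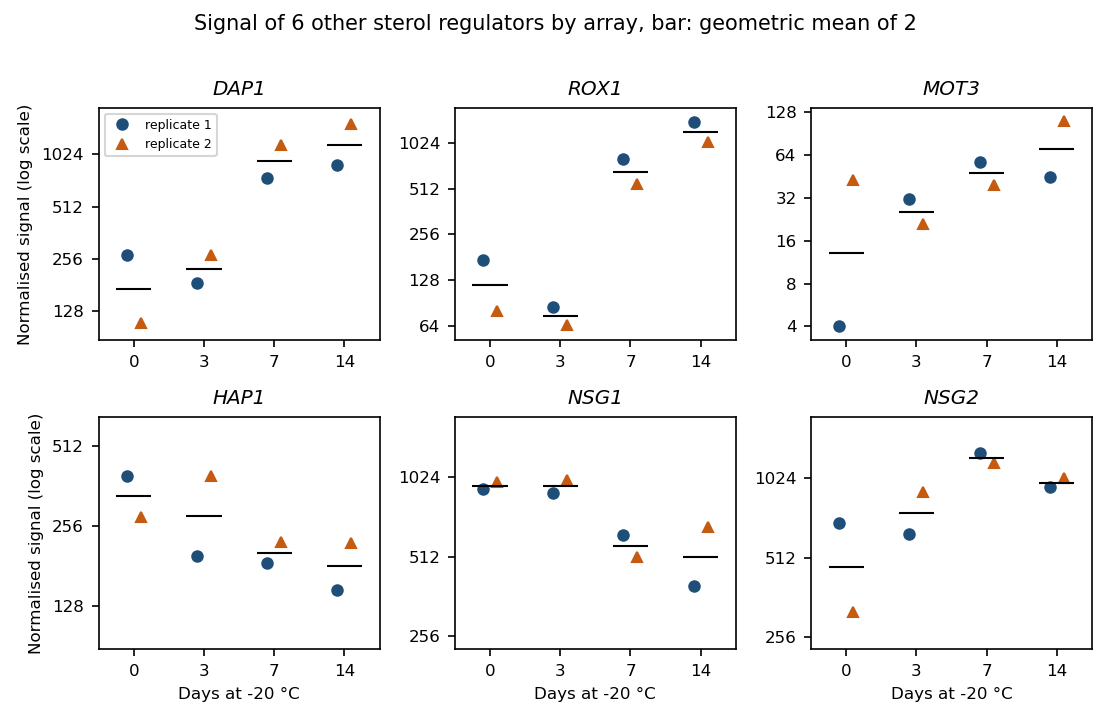
Normalised signal (log scale) of the 6 genes that act on the sterol pathway from outside it, on each array against days at -20 °C. Replicate 1 is shown as circles and replicate 2 as triangles, with a bar at the geometric mean of the 2. DAP1 and ROX1 separate the 7 and 14 day arrays from the 0 and 3 day arrays, and MOT3 has 0 day arrays that differ 10.7-fold.

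The other lists, also written with earlier results of these data known, held no called gene at any time, against at most 4.59% of all genes. The 5 genes of sterol ester hydrolysis and sterol acetylation (YEH1, YEH2, TGL1, ATF2 and SAY1) had medians of -0.53 at 3 days, -0.40 at 7 days and -0.18 at 14 days on the log2 scale. For sterol transfer, 17 of 18 listed genes passed the filter on dim signal (HES1 did not), among them the oxysterol-binding proteins of the Osh family. Their medians were 0.53, 0.24 and 0.35, with values from -2.33 to 1.59 at 14 days. The lowest was that of ARV1, whose 14 day signals were 30.9 and 3.86, replicate 2 lying under the filter level of 17.9. At 14 days 4 of the 17 had an unadjusted p under 0.05, against 22.2% of all genes. The count at 3 days against 0 days was also 4 of the 17, against 7.02% of all genes. The 11 genes of the other branches from the mevalonate pathway, towards ubiquinone, dolichol, heme A and prenylated proteins, had medians of 0.071, 0.42 and 0.11, and 1 of the 11 had an unadjusted p under 0.05 at 14 days, against 22.2% of all genes. Over all genes the medians were 0.076, 0.17 and 0.11.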

How the data were processed

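The authors deposited 1 linear intensity per probe set and array, for 9335 probe sets; how scans were summarised or scaled is not given in the sources used here. A platform annotation gave 6504 probe sets 1 gene, 328 several and 2443 none, and 60 were controls, which were removed. Arrays were quantile normalised, raised to the pooled 5th percentile (2.52) and log2 transformed. Probe sets whose mean over the 8 arrays was under the 25th percentile (log2 signal 4.16) were left out, and each gene was read from its brightest probe set that names no other gene, which left 5188 genes.

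Tests ran in R 4.3.3 with limma 3.58.1, two-sided, on all 8 arrays with 1 coefficient per freezing time (4 residual and 6.89 prior degrees of freedom, intensity trend), with Benjamini-Hochberg adjustment over all 5188 genes within each comparison and a threshold of 0.05. Intervals are 95% confidence intervals from this fit. The procedure was tested on simulated data for 14 days against 0 days. It called 26% of the genes given a true log2 difference of 1, 82% of those given 2 and 98% of those given 4. Most true 2-fold differences thus went uncalled there. In 18 alternatives the normalization, floor, dim filter, probe set choice, fit, array weights or replicate block was changed, or 1 array was left out. The 33 genes, 4 further lists (40 genes) and the alternatives were chosen with earlier results of these data known. Values of every array are given for the 3 highest and 3 lowest genes at 3, 7 and 14 days against 0 days and at 7 against 3 days, for a set of genes fixed by name, and for called genes of the further lists. With 2 samples per time, p-values weigh a difference against a spread between replicates that is pooled over the 4 times and moderated across genes. That spread comes from these 8 samples only.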

Additional observations from a re-analysis of the deposited data

How the results depend on the processing

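Across 18 alternatives, the count of 0 called ergosterol genes changed in 3 comparisons. At 14 days against 0 days it was 1 (AUS1) with the filter at the median and ran from 0 to 2 when arrays were left out, with AUS1 and ERG9 called without 0 day replicate 1. At 7 days against 0 days it ran from 0 to 1 when arrays were left out (ERG9 without 0 day replicate 1) and was 6 without normalization between arrays (ERG6, ERG8, ERG9, ERG10, HMG2 and IDI1, all higher), where 1422 of all genes were called. The F test called 2 without normalization (ERG9 and IDI1), and the share of all genes that it called there is not given here. At that setting the medians of all genes also lay above 0 at each frozen time against 0 days. Without normalization the median log2 fold change of the 33 genes was 0.40 at 3 days, 0.74 at 7 days and 0.30 at 14 days against 0 days, 0.50 and 0.16 at 7 and 14 days against 3 days, and -0.49 at 14 days against 7 days. The medians of all genes were then 0.34, 0.98, 0.59, 0.63, 0.25 and -0.40. With equal array medians the median of the 33 was 0.23 at 3 days and 0.063 at 7 days against 0 days and -0.25 at 14 days against 7 days. With single arrays left out it ran from -0.18 to 0.12, -0.11 to -0.0049 and -0.22 to -0.037 at 3, 7 and 14 days against 0 days, -0.10 to 0.035 and -0.23 to 0.069 at 7 and 14 days against 3 days, and -0.24 to 0.084 at 14 days against 7 days; the cause was not tested. Of 591 values of single genes at 14 days against 0 days under the alternatives, 37 had a changed sign. Nothing in the labels pairs the samples by replicate number. Differences between replicates 1 and 2 correlated across genes at -0.088, 0.086 and 0.048 between 0 days and 3, 7 and 14 days, and at 0.18, 0.19 and 0.29 between 3 and 7, 3 and 14, and 7 and 14 days, so a shared number went with a shared deviation only among the frozen times. With the replicate number as a block, 0 of the 33 genes were called in any comparison and their median was -0.16 at 14 days against 0 days. The number of arrays and the dim signal of ARE2 and UPC2 limit what could be detected.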
